A study of Homo sapiens with 6 samples.

Results

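The 10 genes described here belong to the BCL2 family, which controls whether mitochondria release the proteins that start apoptosis. They were taken by symbol from the 28491 genes of the count table, by a list drawn up with earlier results of these data known. The guards BCL2L1 and MCL1 restrain apoptosis, and the effectors BAX and BAK1 form pores in the mitochondrial outer membrane. The BH3-only genes BID, BAD, BCL2L11, PMAIP1, BIK and BMF encode proteins that bind guards, effectors or both. All 10 passed the filter on low counts that left 16260 genes for testing.

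HCT116, a human colorectal carcinoma line, was transfected by Lipofectamine 2000 with a plasmid carrying RBM47 (the RBM47-OE group), or with a plasmid that served as control (the NC group). Polyadenylated RNA was sequenced 48 h later in 3 libraries of each group. The study asked how a raised level of this RNA-binding protein alters expression in colorectal cancer cells, including genes of apoptosis. By cell assays it reported more apoptosis and less proliferation in RBM47-OE. The RNA levels below do not measure cell death. The sources do not say whether the 3 libraries of a group came from separate cultures, so p-values measure the spread between these libraries, which may be technical. For the expression plasmid the sample labels give pcDNA3.1-3xFlag, and the methods give pIRES-hrGFP-1a.

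The libraries held 26792409 to 35477983 counts on genes. RBM47 stood at 1.91 to 2.33 FPKM under NC against 127.0 to 131.3 under RBM47-OE, so each library matched its label. Its log2 fold change was 5.90 (edgeR adjusted p = 1.7e-25). FPKM, fragments per kilobase of transcript scaled to library size, is the scale on which genes are compared with each other below. The epithelial markers EPCAM and CDH1 stood at 75.2 to 104.2 FPKM and 12.9 to 14.9 FPKM, and the intestinal transcription factor gene CDX2 at 4.06 to 5.01 FPKM. The intestinal markers CDX1, VIL1, LGALS4 and CEACAM5 stayed at or below 0.09 FPKM in all libraries. Of 10 epithelial markers 7 were tested, and 4 of these did not pass an edgeR adjusted p of 0.05. EPCAM rose by a log2 fold change of 0.26, and KRT8 and KRT18 fell by 0.27 and 0.36 in RBM47-OE (edgeR adjusted p = 0.0070, 0.012 and 0.0011). Of all genes, 19.1% were higher and 16.9% lower. In an edgeR fit described below that subtracts the dependence on GC content, EPCAM passed (adjusted p = 0.0055). KRT8 and KRT18 did not pass in it (edgeR adjusted p = 0.37 and 0.063). The summed level of 5 immune marker genes was 0.24 to 0.71 FPKM, that of 3 fibroblast genes 1.34 to 1.78 and that of 4 endothelial genes 0.11 to 0.20.

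BCL2 family proteins meet each other through the BH3 motif, a short helix that fits into a groove on the guards. Balance between guards, effectors and BH3-only proteins sets how easily a cell dies, and many tumours depend on BCL2L1 or MCL1 for survival. The coding bases of the BH3 core are printed for all 10 genes because this motif is what makes them one family, although their RNA levels moved apart. Each line gives 27 bases of the coding strand from GRCh38, and capitals mark the codon of the conserved leucine and the pair of codons that ends in the conserved aspartate:
BCL2L1: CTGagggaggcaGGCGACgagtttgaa
MCL1: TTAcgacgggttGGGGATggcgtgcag
BAX: CTCaagcgcatcGGGGACgaactggac
BAK1: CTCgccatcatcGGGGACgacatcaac
BID: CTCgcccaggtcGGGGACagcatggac
BAD: CTCcggaggatgAGTGACgagtttgtg
BCL2L11: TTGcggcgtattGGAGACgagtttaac
PMAIP1: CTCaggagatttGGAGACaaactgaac
BIK: CTGgcctgcatcGGGGACgagatggac
BMF: CTTcagtgcattGCAGACcagttccac

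In 8 of the 10 genes the codon before the aspartate encodes glycine, and BAD and BMF carry another small residue there. The search that found the cores required the leucine, the aspartate and a small residue (glycine, serine or alanine) before it. The core lay within a single exon in every gene. Among the effectors it was at chr19:48955787-48955813 for BAX (plus strand) and chr6:33575390-33575416 for BAK1 (minus strand). Among the guards it was at chr20:31721925-31721951 for BCL2L1 and chr1:150578868-150578894 for MCL1, both on the minus strand. GC content of the core ran from 44.4% in PMAIP1 to 70.4% in BID.

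Transcript levels of the family spanned a wide range in the NC libraries. BCL2L1 was the most abundant at 77.1 ± 2.46 FPKM (SD, n = 3), a level higher than 97.1% of 16368 protein-coding genes. BAD followed at 32.5 ± 0.886 FPKM, BAX at 29.6 ± 0.521 and MCL1 at 25.2 ± 0.375. BIK stood at 23.8 ± 1.2 FPKM, PMAIP1 at 19.3 ± 0.762, BAK1 at 18.3 ± 0.475 and BID at 10.8 ± 0.236. BCL2L11 at 2.69 ± 0.236 FPKM and BMF at 0.59 ± 0.0794 were the lowest. Of the neighbours in this order, the replicate ranges of MCL1 and BIK overlapped, as did those of PMAIP1 and BAK1, and all other neighbours were separate.

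In RBM47-OE the mean of MCL1 moved from rank 4 to rank 2, while BAK1 kept rank 7. BCL2L1 remained first at 70.9 ± 4.71 FPKM (SD, n = 3) and was followed by MCL1 at 31.6 ± 2.75. MCL1, BAD, BAX, PMAIP1 and BIK formed a chain in which each overlapped the next, so their order in RBM47-OE is not resolved. BAK1 lay apart from both of its neighbours, BIK above it and BID below.

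**Figure D1:**
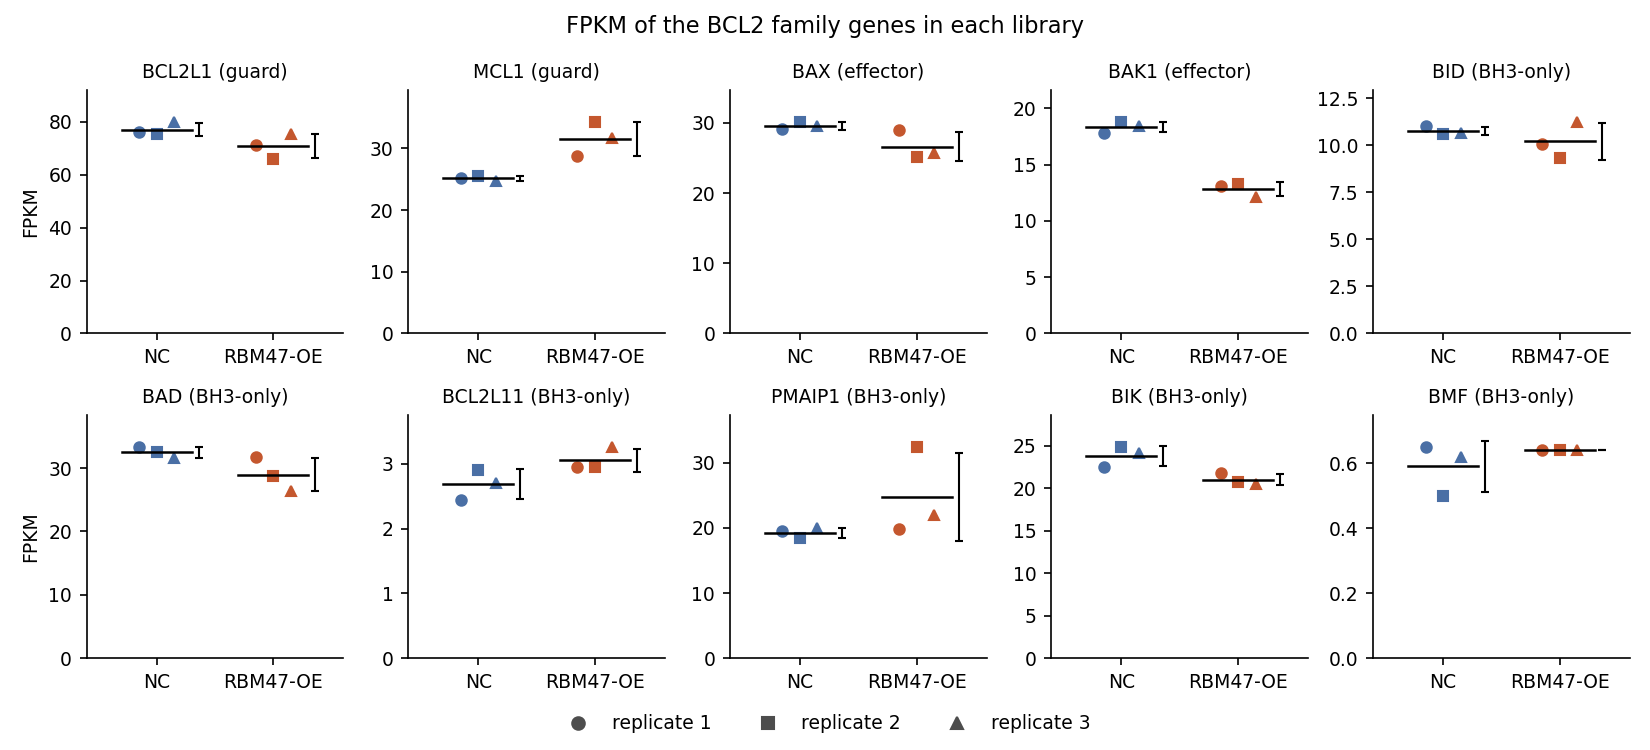
Deposited FPKM of each gene (vertical axes, from 0) in the 3 NC and 3 RBM47-OE libraries, with the group mean as a line and 1 SD as a bar. BAK1 fell from 17.8 to 18.8 FPKM in NC to 12.1 to 13.2 in RBM47-OE, MCL1 rose in every RBM47-OE library, and PMAIP1 stood at 32.4 FPKM in RBM47-OE replicate 2 alone.

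BAK1 had the largest change of the 10 genes, and the other called members, MCL1 among them, changed by 0.19 to 0.29 in size on the log2 scale. In these bulk samples a change in a share of the cells and a change in RNA per cell cannot be told apart. With edgeR's quasi-likelihood test, 7 of the 10 genes passed a Benjamini-Hochberg adjusted p of 0.05 over all genes tested, against 35.9% of all genes. MCL1 and PMAIP1 were higher and BCL2L1, BAX, BAK1, BAD and BIK lower, against 19.1% of all genes called higher and 16.9% called lower. BID, BCL2L11 and BMF did not pass. The study itself required p under 0.01 without adjustment and a fold change above 1.5. Here that rule was applied to the edgeR fit, whereas the study used DESeq2. In edgeR BAK1 was the 1 member called, as lower, against 0.873% of all genes lower and 2.38% in either direction. BAK1 passed the fold change limit narrowly in edgeR, at a log2 fold change of -0.5875. In DESeq2 on all genes it was at -0.5825, just short of that limit. DESeq2 on all genes gave 1 higher and 5 lower members, against 38.7% of genes called, 20.8% higher and 18.0% lower. The median log2 fold change of the 10 genes was -0.17, and that of all genes tested was 0.00. On TMM-normalized CPM, read counts scaled to library size, 5 genes had all RBM47-OE libraries below all NC libraries and 1 had all above, against 23.4% of all genes separated as lower, 23.2% as higher and 46.5% in all.

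Change followed the base composition of the genes. Over 16233 tested genes with annotated exons, the log2 difference of a library from the NC mean ran against exonic GC content with Spearman's rho of -0.41, -0.59 and -0.67 in RBM47-OE replicates 1, 2 and 3. Each NC library, set against the mean of the remaining NC libraries, had a rho between -0.16 and 0.13. These are descriptions across genes, which are not replicates. The family spans this range, from PMAIP1 at 40.0% GC over MCL1 at 45.5% and BCL2L11 at 47.4% to BAX at 60.7% and BAD at 64.7%. Over the 10 genes, Spearman's rho between exonic GC content and log2 fold change was -0.85, given as a description of points that share the same 6 libraries.

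For 6 members the log2 fold change lay within 0.06 of the median of their GC bin, with all tested genes split into 10 bins. BAX was at -0.22 where its bin had a median of -0.22, and BAD was at -0.23 in a bin at -0.23. BCL2L1 was at -0.19 beside -0.20, BID at -0.15 beside -0.15, BIK at -0.25 beside -0.20 and PMAIP1 at 0.29 beside 0.31. For PMAIP1 the single libraries did not lie close to the bin. Its log2 differences from the NC mean were 0.00, 0.64 and 0.13 in RBM47-OE replicates 1, 2 and 3. The bin medians in these libraries were 0.16, 0.35 and 0.39. BAK1 departed the most, at -0.59 in a bin with a median of -0.22, a difference of -0.37. MCL1 stood 0.13 above its bin, BCL2L11 0.09 above and BMF 0.25 above. In a further edgeR fit, named the GC offset here, the dependence on GC content was subtracted from every library. In it BAK1 passed as lower and MCL1 as higher, against 8.47% of all genes lower, 5.99% higher and 14.5% in all. Any change that runs with GC content is subtracted as well, and the part of GC content in these changes was not tested.

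**Figure D2:**
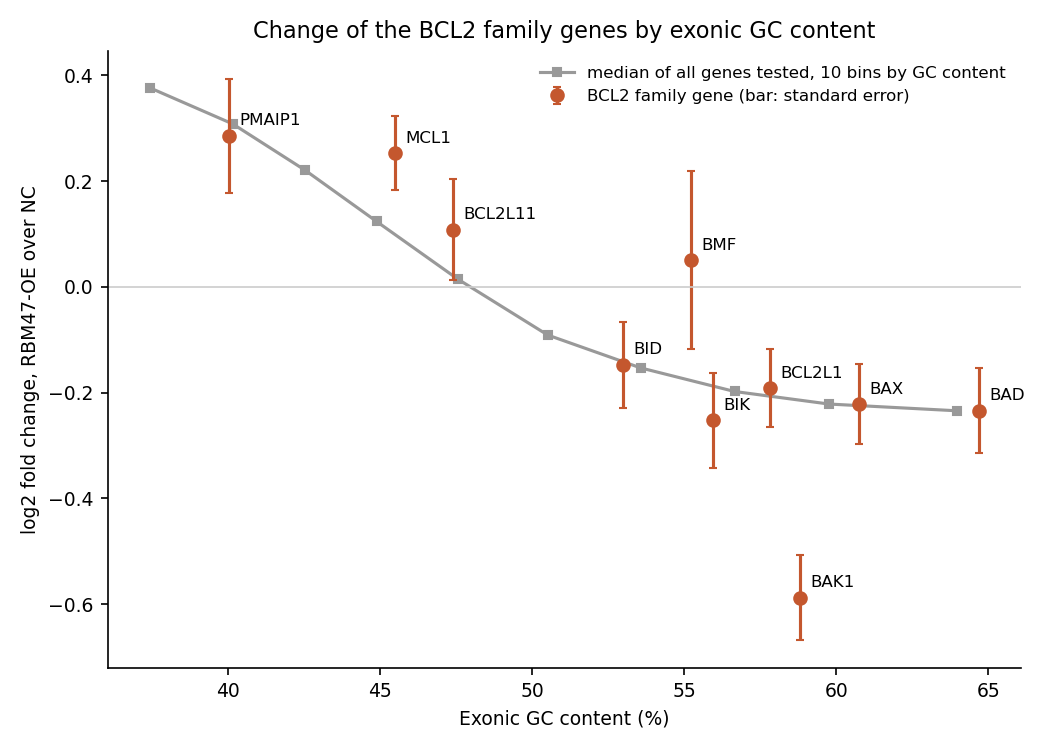
Log2 fold change of RBM47-OE over NC (vertical axis) against exonic GC content in percent (horizontal axis) for the 10 genes, with the standard error as bars, beside the median of all tested genes in 10 GC bins. Most genes lie near the grey line of medians. BAK1 lies 0.37 below the median of its GC bin, and BMF lies 0.25, MCL1 0.13 and BCL2L11 0.09 above theirs.

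BCL2L1 encodes BCL-XL, a guard that holds effectors and BH3-only proteins in check. It had 76.2, 75.3 and 79.9 FPKM in NC replicates 1, 2 and 3, against 71.2, 66.0 and 75.4 in RBM47-OE. On this scale the groups overlapped by a small margin, between NC replicate 2 and RBM47-OE replicate 3, while on CPM they did not. Its log2 fold change came to -0.19 with a standard error of 0.074 (edgeR adjusted p = 0.043). The GC offset gave -0.01 (95% interval -0.14 to 0.13, edgeR adjusted p = 0.97). The call was lost when NC replicate 1, 2 or 3 or RBM47-OE replicate 2 was left out in turn, with edgeR adjusted p of 0.12, 0.10, 0.19 and 0.18.

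MCL1 encodes a short-lived guard that is replaced quickly and is held down by PMAIP1. Its FPKM was 25.2, 25.6 and 24.8 in NC against 28.8, 34.3 and 31.7 in RBM47-OE. Every RBM47-OE library lay above every NC library, with replicate 1 the lowest of the 3. The difference of RBM47-OE from NC was 0.25 on the log2 scale, with a standard error of 0.070 (edgeR adjusted p = 0.0066), a rise to 1.19 times the NC level. Under the GC offset the value was 0.16 (standard error 0.055, edgeR adjusted p = 0.049), and without RBM47-OE replicate 1 it was 0.31. The 1 fit of 19 in which MCL1 did not pass had both the GC offset and the replicate number as a block (0.16, edgeR adjusted p = 0.090). MCL1 lies on chromosome 1 of GRCh38 from 150560895 to 150579738, and the coding part of its canonical transcript had 61.0% GC and its 3' UTR 38.8%. Short and long isoforms of MCL1 and BCL2L1, which act in opposite ways, cannot be told apart in counts per gene.

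BAX, an effector that moves from the cytosol to mitochondria, had 29.1, 30.1 and 29.6 FPKM in NC against 29.0, 25.1 and 25.7 in RBM47-OE. RBM47-OE replicate 1 was just below the lowest NC library, and replicates 2 and 3 were clearly lower. On the log2 scale it changed by -0.22 (standard error 0.076, edgeR adjusted p = 0.024). The value under the GC offset was -0.01 (95% interval -0.13 to 0.10, edgeR adjusted p = 0.90). Leaving out any library except RBM47-OE replicate 1 also ended the call, with edgeR adjusted p of 0.068, 0.11 and 0.080 for NC replicates 1, 2 and 3 in turn, and 0.13 and 0.069 for RBM47-OE replicates 2 and 3.

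BAK1 encodes BAK, the effector that resides in the mitochondrial outer membrane and is held there by BCL2L1 and MCL1. Its FPKM was 17.8, 18.8 and 18.4 in NC against 13.1, 13.2 and 12.1 in RBM47-OE. The lowest NC library stood well above the highest RBM47-OE library, and the 3 RBM47-OE replicates lay close together. In reads, 1208, 1660 and 1357 counts in NC stood against 1080, 1013 and 860 in RBM47-OE. The log2 fold change was -0.59 (standard error 0.080, 95% interval -0.75 to -0.42, edgeR adjusted p = 2.7e-05), a fall to 0.666 times the NC level. The differences from the NC mean were -0.52, -0.58 and -0.66 in RBM47-OE replicates 1, 2 and 3.

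With the GC offset, BAK1 changed by -0.40 (standard error 0.063, edgeR adjusted p = 3.0e-04). Over all 19 alternative fits its log2 fold change ran from -0.61 to -0.39, and edgeR, DESeq2 and limma all called it, with adjusted p of 0.0079 or less. In GRCh38, BAK1 occupies bases 33572547 to 33580293 of chromosome 6 (minus strand), and its exons hold 2212 bases with 58.8% GC. A processed copy of the gene, BAK1P1 on chromosome 20, received 0 to 3 counts per library.

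**Figure D3:**
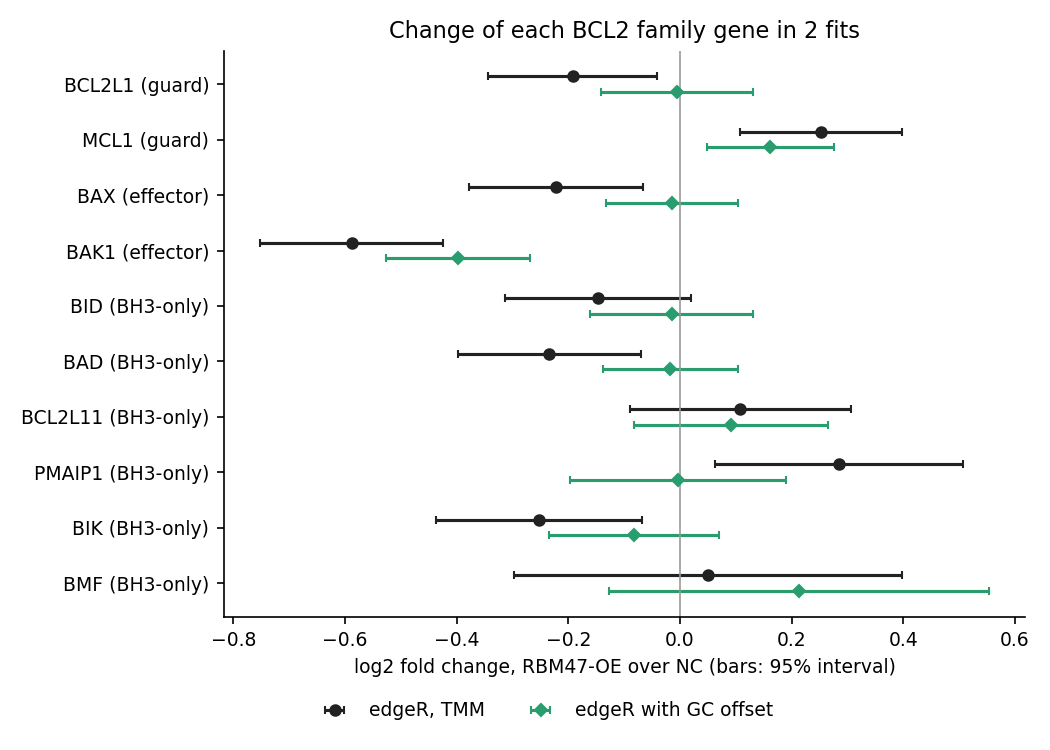
Log2 fold change of RBM47-OE over NC (horizontal axis) for each of the 10 genes, with 95% intervals, in edgeR with TMM normalization (circles) and with the GC offset (diamonds). The interval of BAK1 lies below 0 and that of MCL1 above 0 in both fits, while the other 5 called genes move to between -0.08 and 0.00 with the GC offset.

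BAX and BAK1 have similar exonic GC content (60.7% and 58.8%), while the 3' UTRs of their canonical transcripts have 50.6% and 57.2%. BAX exceeded BAK1 by a factor of 1.63, 1.61 and 1.61 in NC and of 2.21, 1.90 and 2.12 in RBM47-OE. The groups did not overlap, and their means were 1.61 ± 0.0152 and 2.08 ± 0.161 (SD, n = 3). The summed FPKM of both effectors was 47.9 ± 0.991 in NC and 39.4 ± 2.30 in RBM47-OE, again without overlap. That of both guards was 102.3 ± 2.12 and 102.5 ± 4.02, with overlapping groups, the mean of BCL2L1 being lower and that of MCL1 higher.

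The ratio of guard to effector FPKM was 2.16, 2.06 and 2.18 in NC against 2.38, 2.61 and 2.83 in RBM47-OE. It was higher in every RBM47-OE library, with means of 2.14 ± 0.0639 and 2.61 ± 0.227 (SD, n = 3). BCL2L1 stood at 3.07 ± 0.142 times MCL1 in NC and at 2.26 ± 0.293 times in RBM47-OE. The ratio of MCL1 to BAK1, genes that differ in GC content, went from 1.37 ± 0.0343 to 2.47 ± 0.234. MCL1, at 45.5% exonic GC, also enters the 2 ratios before it, beside genes of 57.8% to 60.7%. With the GC offset the log2 fold changes were -0.01 for BCL2L1, 0.16 for MCL1, -0.01 for BAX and -0.40 for BAK1. The part of GC content in these ratios was not tested. The ratio of BCL2L1 to BAX overlapped between groups, at 2.61 ± 0.103 and 2.67 ± 0.240. That of PMAIP1 to MCL1 also overlapped, at 0.766 ± 0.0414 and 0.777 ± 0.147. That of BCL2L1 to BAK1 did not overlap, at 4.21 ± 0.173 and 5.55 ± 0.627. No test was attached to these ratios.

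**Figure D4:**
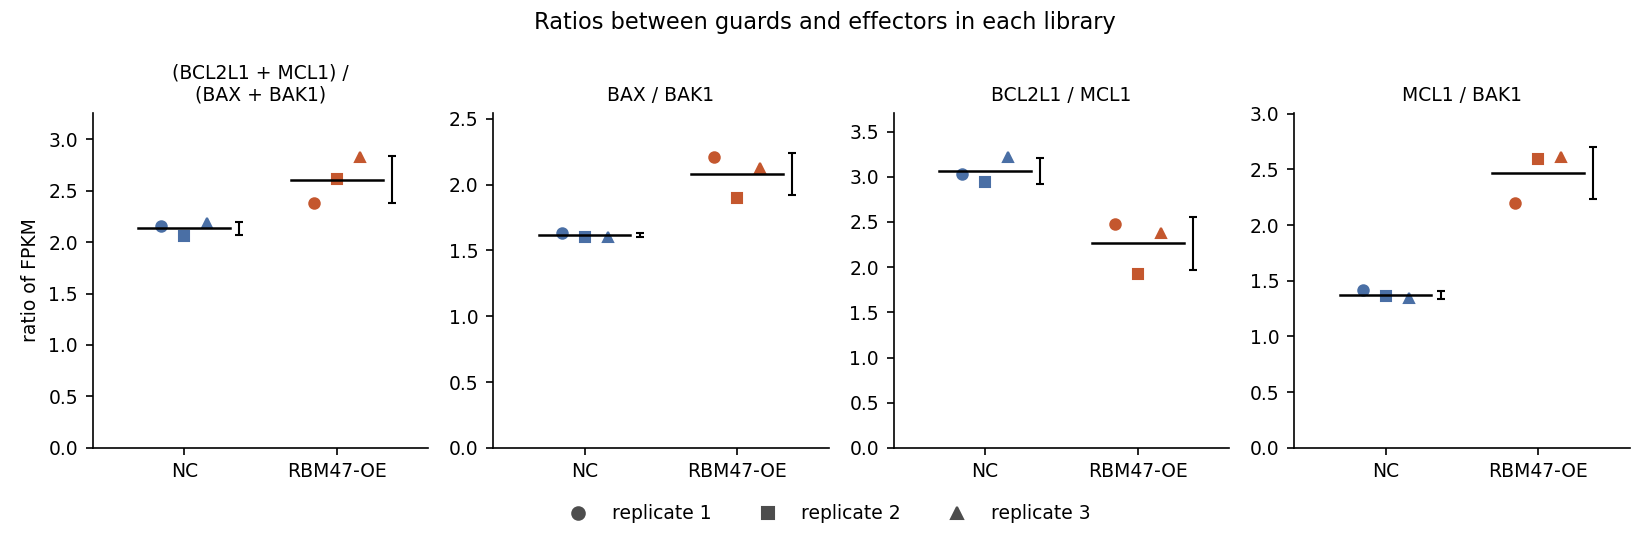
Ratios of FPKM within each library (vertical axes, from 0) for guards over effectors, BAX over BAK1, BCL2L1 over MCL1 and MCL1 over BAK1, with the group mean as a line and 1 SD as a bar. In all 4 panels the NC and RBM47-OE libraries do not overlap, and the guard to effector ratio has means of 2.14 and 2.61. The panels share genes, so they are not independent. Of the ratios not drawn, BCL2L1 to BAX and PMAIP1 to MCL1 overlapped, and BCL2L1 to BAK1 did not.

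PMAIP1 encodes NOXA, a BH3-only protein that binds MCL1 and marks it for degradation. Its FPKM was 19.5, 18.4 and 19.9 in NC against 19.8, 32.4 and 22.1 in RBM47-OE. RBM47-OE replicate 2 stood far above all other libraries, and replicate 1 lay within the NC range. Its log2 fold change came to 0.29 with a standard error of 0.11 (edgeR adjusted p = 0.040), and the SD of log2 CPM was 0.34 in RBM47-OE and 0.06 in NC. Without RBM47-OE replicate 2 it was 0.06 (edgeR adjusted p = 0.60), and with the GC offset it was -0.0032 (95% interval -0.20 to 0.19, edgeR adjusted p = 0.99). DESeq2 did not call it (adjusted p = 0.27). With NC replicates 1, 2 and 3 left out in turn, the edgeR adjusted p was 0.076, 0.14 and 0.069.

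The transcription factor genes DDIT3 (CHOP) and ATF4 act in the stress response that is known to induce PMAIP1, and they also varied within RBM47-OE. Both are named because of their values. DDIT3 had 21.8, 20.7 and 18.6 CPM (TMM-normalized) in NC and 31.9, 74.8 and 14.7 in RBM47-OE, so that its highest and lowest libraries were both RBM47-OE. ATF4 had 422, 405 and 371 CPM in NC and 347, 452 and 230 in RBM47-OE, again highest in replicate 2 and lowest in replicate 3. DDIT3 had a log2 fold change of 0.99 (edgeR adjusted p = 0.0070) with all libraries and 0.20 (edgeR adjusted p = 0.48) without RBM47-OE replicate 2. ATF4 did not pass with all libraries (-0.22, edgeR adjusted p = 0.20) and was lower without RBM47-OE replicate 2 (-0.47, edgeR adjusted p = 0.0076). The relation between PMAIP1 and these genes was not tested.

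**Figure D5:**
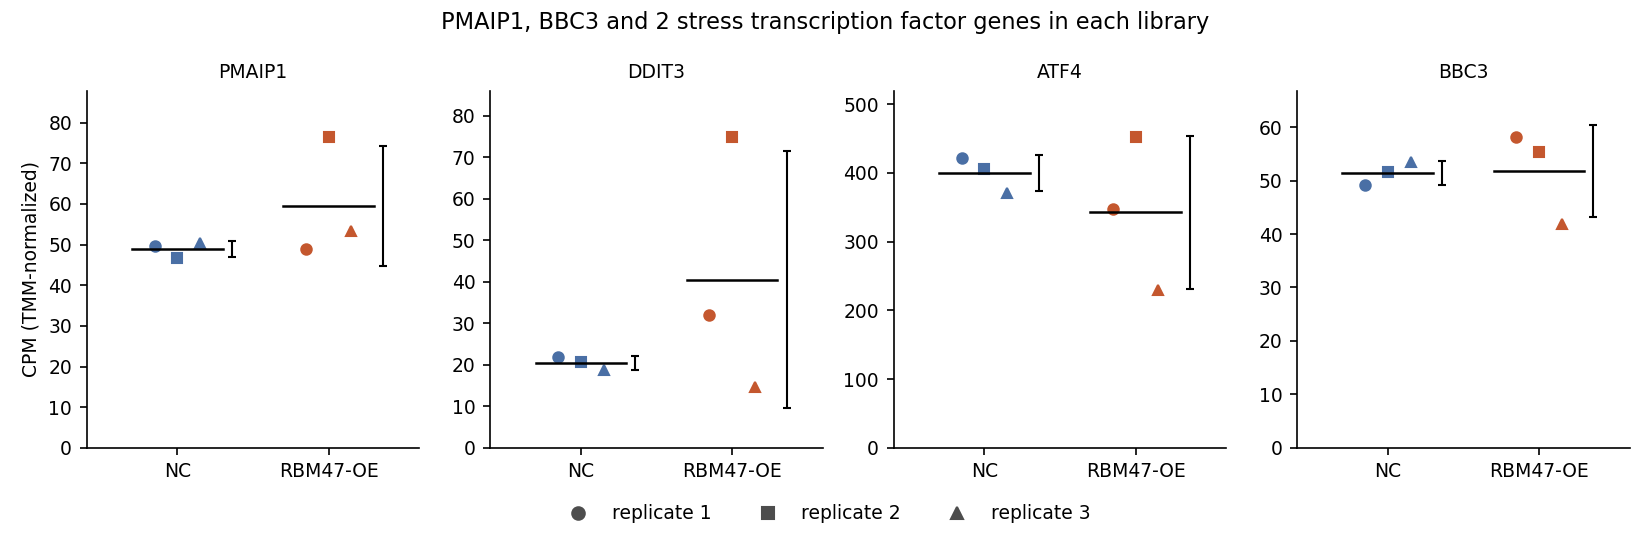
TMM-normalized CPM (vertical axes, from 0) of PMAIP1, DDIT3, ATF4 and BBC3 in the 3 NC and 3 RBM47-OE libraries, with the group mean as a line and 1 SD as a bar. RBM47-OE replicate 2 is the highest library for PMAIP1, DDIT3 and ATF4, and RBM47-OE replicate 3 is the lowest for DDIT3, ATF4 and BBC3.

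BAD binds BCL2L1 when survival signalling stops and its phosphates are removed. Its FPKM was 33.4, 32.5 and 31.6 in NC against 31.7, 28.8 and 26.4 in RBM47-OE, and RBM47-OE replicate 1 fell inside the NC range. The difference of RBM47-OE from NC was -0.23 on the log2 scale, with a standard error of 0.080 (edgeR adjusted p = 0.023). It was -0.02 with the GC offset (95% interval -0.14 to 0.10, edgeR adjusted p = 0.89). Leaving out NC replicates 1, 2 and 3 in turn gave edgeR adjusted p of 0.11, 0.083 and 0.054, and leaving out RBM47-OE replicates 2 and 3 gave 0.087 and 0.11. On the opposite strand, exons of GPR137 cover 23.7% of the exonic bases of BAD. The libraries were made with a kit that keeps strand, but the counting is not stated to use it, so reads of the overlapping part cannot be assigned with certainty, although GPR137 itself had 365 to 520 counts against 1450 to 2224 for BAD.

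BIK, a BH3-only protein of the endoplasmic reticulum, had 22.5, 24.9 and 24.1 FPKM in NC against 21.8, 20.7 and 20.5 in RBM47-OE. The groups did not overlap, and NC replicate 1 was the nearest to the RBM47-OE libraries. On the log2 scale it changed by -0.25 (standard error 0.090, edgeR adjusted p = 0.030) and was -0.08 with the GC offset (95% interval -0.23 to 0.07, edgeR adjusted p = 0.51). The edgeR adjusted p was 0.15 and 0.10 with NC replicate 2 or 3 left out, and 0.095 and 0.064 with RBM47-OE replicate 2 or 3 left out.

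BID links death receptors to mitochondria once caspase-8 has cut it. It had 11.02, 10.6 and 10.7 FPKM in NC against 10.1, 9.30 and 11.2 in RBM47-OE, and RBM47-OE replicate 3 was the highest of all 6 libraries. The log2 fold change was -0.15 (95% interval -0.31 to 0.02, edgeR adjusted p = 0.16). Without RBM47-OE replicate 3 it was -0.22 and passed (edgeR adjusted p = 0.042), and with the GC offset it was -0.015 (95% interval -0.16 to 0.13).

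BCL2L11 encodes BIM, which binds all guards and can also activate effectors directly. Its FPKM was 2.44, 2.91 and 2.71 in NC against 2.95, 2.95 and 3.26 in RBM47-OE, so the groups were separate on this scale by a narrow margin. On CPM they overlapped, and the log2 fold change was 0.11 (95% interval -0.09 to 0.31, edgeR adjusted p = 0.41). Exons of the long noncoding gene MIR4435-2HG on the opposite strand cover 10.8% of its exonic bases.

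BMF, a BH3-only protein tied to the cytoskeleton, was the least expressed, with 109 to 129 counts per library. It had 0.65, 0.50 and 0.62 FPKM in NC and 0.64 in each RBM47-OE library. NC replicate 2 was the lowest, and the change was not detectable at this depth, with a log2 fold change of 0.05 (95% interval -0.30 to 0.40, edgeR adjusted p = 0.85). Without NC replicate 2 the value was -0.06. With the GC offset the interval ran from -0.13 to 0.55.

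The 3 RBM47-OE libraries did not contribute alike. In RBM47-OE replicate 1 the log2 differences from the NC mean were -0.07 for BAX, -0.07 for BAD and 0.00 for PMAIP1. The same genes stood at -0.34, -0.28 and 0.64 in replicate 2 and at -0.27, -0.36 and 0.13 in replicate 3. BAK1 was low in all 3. Over all genes tested, the median SD of log2 CPM was 0.15 in RBM47-OE and 0.09 in NC, and 0.10 over RBM47-OE replicates 2 and 3. The last value is an SD of 2 libraries and the others of 3, so they cannot be compared directly. Without RBM47-OE replicate 1, 2 members were higher and 5 lower, against 23.5% of all genes higher, 21.3% lower and 44.9% in all in that fit.

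Other genes of the family were counted from a list of 13, of which 10 passed the filter. BCL2 itself had 77 to 141 counts per library, a log2 fold change of 0.02 and an interval of -0.35 to 0.40. BCL2A1, BCL2L10 and BCL2L14 had 0 to 5 counts in every library. At an edgeR adjusted p under 0.05, 3 of the 10 were higher and 2 lower, beside 19.1% and 16.9% of all genes, and their median log2 fold change was 0.02. BNIP3 and BNIP3L, which mark mitochondria for removal by autophagy, rose by 0.39 (standard error 0.070, edgeR adjusted p = 2.2e-04) and 0.52 (standard error 0.071, edgeR adjusted p = 2.7e-05). BNIP3 had 31.3, 30.3 and 31.8 FPKM in NC against 41.6, 41.5 and 45.3 in RBM47-OE, and the RBM47-OE libraries were all higher.

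BNIP3 rose by 0.45 with the GC offset (edgeR adjusted p = 5.8e-05) and BNIP3L, with exons of 39.1% GC, by 0.21 (edgeR adjusted p = 0.020). BOK, an effector-like member, fell by 0.39 on the log2 scale (edgeR adjusted p = 4.9e-04), and BCL2L12 fell by 0.40 (edgeR adjusted p = 0.0010). With the GC offset BOK stood at -0.16 (edgeR adjusted p = 0.14) and BCL2L12 at -0.21 (edgeR adjusted p = 0.031). BCL2L2, the guard BCL-W, rose by 0.20 (edgeR adjusted p = 0.041) and by 0.33 with the GC offset (edgeR adjusted p = 8.2e-04). Without the offset, the BCL2L2 call was lost when NC replicate 1, 2 or 3 or RBM47-OE replicate 2 was left out in turn (edgeR adjusted p = 0.13, 0.10, 0.16 and 0.12). BBC3, which encodes the BH3-only protein PUMA, had a log2 fold change of 0.01 (edgeR adjusted p = 0.94) and one of 0.23 with the GC offset (edgeR adjusted p = 0.037). BCL2L2 and BBC3 are named because of their values.

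Of 14 genes that act at or after the mitochondrial step, 3 were higher and 1 lower at an edgeR adjusted p under 0.05, beside 19.1% and 16.9% of all genes, and 10 did not pass. The median log2 fold change was 0.07. OPA1, which shapes the inner membrane, rose by 0.44 (standard error 0.083, edgeR adjusted p = 3.3e-04). XIAP, an inhibitor of caspases, rose by 0.35 (standard error 0.082, edgeR adjusted p = 0.0016), and CYCS, the gene of cytochrome c, by 0.29 (standard error 0.080, edgeR adjusted p = 0.0060). ENDOG, a mitochondrial nuclease, fell by 0.27 (standard error 0.087, edgeR adjusted p = 0.016). The 3 higher genes had exons of 38.5% to 42.4% GC and ENDOG of 67.9%. With the GC offset none of these 4 passed in edgeR, and VDAC2, a channel protein that holds BAK, was lower at -0.25 (edgeR adjusted p = 0.0083), a gene named because of its value. Without the offset VDAC2 stood at -0.13 (edgeR adjusted p = 0.16), and it passed without RBM47-OE replicate 1 (-0.15, edgeR adjusted p = 0.046). In edgeR, the CYCS call was lost without NC replicate 2 (0.27, adjusted p = 0.051) or RBM47-OE replicate 3 (0.18, adjusted p = 0.063). The ENDOG call was lost without NC replicate 2, NC replicate 3 or RBM47-OE replicate 3 (edgeR adjusted p = 0.12, 0.050 and 0.053). APAF1 and CASP9, the core of the apoptosome and named for that role, had log2 fold changes of 0.23 and -0.03 (edgeR adjusted p = 0.054 and 0.83).

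Among 17 tested regulators of the family, 6 were higher and 4 lower at an edgeR adjusted p under 0.05, beside 19.1% and 16.9% of all genes. Their median log2 fold change was 0.14, and that of all genes tested was 0.00. TP73, a transcription factor gene, fell by 0.43 on the log2 scale (edgeR adjusted p = 7.0e-04) and stood at -0.21 with the GC offset (edgeR adjusted p = 0.068). CUL5, a ubiquitin ligase scaffold, rose by 0.48 (edgeR adjusted p = 2.1e-04), and USP9X, which removes ubiquitin from MCL1, by 0.35 (edgeR adjusted p = 0.0013). With the offset CUL5 was at 0.12 (edgeR adjusted p = 0.28) and USP9X at 0.07 (edgeR adjusted p = 0.49). The higher genes of the list under the offset were FOXO3 and DDIT3 (2 genes). FOXO3, also named because of its value, stood at 0.25 in that fit (edgeR adjusted p = 0.0055). Without the offset it was at 0.20 (edgeR adjusted p = 0.030), and leaving out any library except RBM47-OE replicate 1 ended that call, with edgeR adjusted p of 0.077, 0.21 and 0.075 for NC replicates 1, 2 and 3 in turn and of 0.069 and 0.074 for RBM47-OE replicates 2 and 3.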

How the data were processed

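All 6 libraries were used, 3 NC and 3 RBM47-OE, grouped by sample title. The authors trimmed reads with FASTX-Toolkit, used HISAT2 with GRCh38 for alignment and deposited 2 tables, one of uniquely mapped read counts per gene without normalization and one of FPKM (fragments per kilobase, scaled to library size). Labels and methods name different library kits, NEBNext Ultra Directional and KC Stranded mRNA, both of which keep strand. The counting tool, annotation release and the strand setting of the counting are not given in the sources used here.

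Counts of 26792409 to 35477983 per library were tested with edgeR 4.0.16 in R 4.3.3: filterByExpr (minimum count 10, minimum total 15), TMM, quasi-likelihood test, condition as the only term, Benjamini-Hochberg adjustment over 16260 genes. Standard errors were derived from each log2 fold change and its F statistic. Exonic GC content and coordinates came from GENCODE 44, matched by gene identifier for 28416 genes of GRCh38, and the build of the counts is the same. The GC offset was a loess curve (span 0.3) per library. BH3 cores were found in the canonical transcripts by a pattern that fixed the leucine, a hydrophobic and then a small residue, and the aspartate. Ratios were taken on FPKM, without a test.

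Alternatives were DESeq2 1.42.0, limma 3.58.1 on log2 FPKM (pseudocount 1 or 0.1, genes averaging 0.1 FPKM or more), RLE factors, library totals, other filters, a length offset, the replicate block and each library left out. The GC offset without RBM47-OE replicate 1 was added after seeing the data. edgeR, DESeq2 and limma were tested on simulated data. The members and lists were chosen with earlier results of these data known. Every member, RBM47, copies of members and the 4 genes with the smallest adjusted p under 0.05 of each further list are named, except 1 gene that is not reported here, and a gene marked as named because of its value was chosen after its values were seen.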

Additional observations from a re-analysis of the deposited data

How the results depend on the processing

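BAK1 as lower passed in all 19 alternative fits and MCL1 as higher in 18. The other 5 called members were without the call in 11 to 14 of the 19. Of the members, 2 were higher and 5 lower in edgeR with TMM. Higher members numbered 1 with DESeq2 on filtered or on all genes, with limma at a pseudocount of 1 or 0.1, with the GC offset and at an adjusted p under 0.01, and 0 at the study's thresholds. Lower members numbered 1 with library totals, the GC offset, the length offset, limma with either pseudocount, an adjusted p under 0.01 and the study's thresholds, and 3 without a filter. The cause was not tested. With each library left out in turn, 1 to 2 members were higher and 1 to 5 lower. Of all genes, 19.1% were higher and 16.9% lower in edgeR with TMM, and 5.99% and 8.47% with the GC offset. DESeq2 on all genes had 20.8% and 18.0%. The study's thresholds, applied throughout to the edgeR fit, had 1.51% and 0.873%. Without RBM47-OE replicate 1 the shares were 23.5% and 21.3%. For the remaining settings the share of all genes was not taken, so their counts cannot be set against one.

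For the 3 further lists, the GC offset gave 4 higher and 1 lower other family genes, against 3 and 2 without it. It gave 0 higher and 1 lower genes at the mitochondrial step, and 2 higher and 1 lower regulators. Of all genes, 5.99% were higher and 8.47% lower in that fit. The study's thresholds gave 0 and 0, 0 and 0, and 1 and 0 genes, higher and lower. An adjusted p under 0.01 left 0 lower genes at the mitochondrial step and 3 higher regulators. The length offset gave 0 lower genes at the mitochondrial step and 3 higher regulators, and library totals gave 0 lower at that step. Leaving out 1 library gave 2 to 4 higher and 0 to 2 lower genes at the mitochondrial step, 2 to 3 higher and 2 lower other family genes, and 3 to 9 higher and 2 to 4 lower regulators.

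Same-numbered libraries showed no shared deviation from their group means, with correlations of -0.06, -0.01 and -0.02. These values cannot settle whether the replicates were made in pairs. With the replicate block, 2 members were higher and 4 lower. The GC offset with replicate block gave 0 higher and 1 lower member, and 4 higher and 1 lower other family genes. It gave 0 higher and 1 lower genes at the mitochondrial step, and 2 higher and 1 lower regulators. Added after seeing the data, the GC offset without RBM47-OE replicate 1 gave 1 higher and 1 lower member, and 2 higher and 1 lower other family genes. That fit gave 0 higher and 1 lower genes at the mitochondrial step, and 2 higher and 2 lower regulators. In that fit BCL2L1 stood at 0.01 (0.0139) and BID at 0.0003. PMAIP1 turned to -0.0032 with the GC offset and -0.0201 with the GC offset and replicate block. BMF turned to -0.0636 without NC replicate 2 and ran up to 0.1310 with other libraries left out. None of these reversed values passed the threshold.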

Other observations

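Several genes near these were counted in ways that bear on their values. DIABLO, whose protein leaves mitochondria and frees caspases from XIAP, had 25 to 44 counts per library. The gene ENSG00000284934, which covers the same stretch of the minus strand in GENCODE 44, had 1977 to 2720 counts, so reads of the shared stretch cannot be told apart and the level of DIABLO is uncertain. BCL2L1 shares 41.3% of its exonic bases with ABALON, a noncoding gene on the opposite strand with 438 to 610 counts per library. ABALON had a log2 fold change of -0.31 (standard error 0.11, edgeR adjusted p = 0.025) beside -0.19 for BCL2L1, and without knowledge of the strand setting of the counting their reads cannot be told apart.

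The coding part of every member had more than 50% GC, from 53.7% in BCL2L11 to 67.3% in BAD, while the 3' UTR of the canonical transcripts ran from 31.4% in PMAIP1 and 38.8% in MCL1 to 63.1% in BAD. PMAIP1 and MCL1, the members called higher, had the lowest GC content in this part of the transcript. The call of PMAIP1 was lost without RBM47-OE replicate 2 (0.06, edgeR adjusted p = 0.60). BID at 41.2% and BCL2L11 at 43.0% came next and were not called. This is a description of 10 genes, and no test was attached to it.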
